A study of Mus musculus with 26 samples.

Results

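The Obox genes are a family of mouse homeobox genes whose transcripts were first described in oocytes. Their products are transcription factors, and several act at zygotic genome activation, when the embryo first switches on its own genes. Obox1, Obox2 and Obox5 are known as maternal members, stored in the egg, and Obox3 as a member transcribed by the zygote itself. Obox6 is known for promoting reprogramming of fibroblasts to pluripotency. Dux, a double homeobox factor, opens the program of the 2-cell embryo, and mouse embryonic stem cells (mESCs) that express it resemble that stage.

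Here the levels of 5 members, Obox1, Obox2, Obox3, Obox5 and Obox6, were read from poly(A) RNA-seq of the mESC line R1. They were taken by gene name from a table of 55291 genes, in which 55 entries carry an Obox name. The 26 libraries fall into 13 groups of 2 replicates, with library totals between 14401452 and 39402840 counts. The other 50 Obox entries, nearly all annotated pseudogenes, are described further down as neighbours and relatives.

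All groups share the R1 background and culture with leukemia inhibitory factor on gelatin. ESC is the untreated control and DMSO the solvent control. RA received retinoic acid at 0.53 µM for 48 h, and PlaB received pladienolide B, an inhibitor of splicing, at 4 nM for 4 days. Zscan4 OE, Dux OE and Dux R70A OE overexpress Zscan4, Dux or a Dux mutant under doxycycline for 24 h, at 4 µg/mL where the labels give a dose. A Dux knockdown was combined with RA (Dux KD RA), with PlaB (Dux KD PlaB) or with Zscan4 overexpression (Dux KD Zscan4 OE, whose labels give no treatment or time). SE KO RA, SE KO PlaB and SE KO Dux OE lack a super-enhancer at the Tdpoz locus. No group is named as a knockdown or deletion without an induction, and none as a control construct. Effects of the knockdown or the deletion thus cannot be told apart from differences between the cell lines that carry them. The labels name neither the clones nor the knockdown constructs, and number the replicates only. The study's legends call them biological replicates for some of these comparisons, without saying what separated them. The p-values thus rest on the spread between these replicates, estimated for each gene over all 13 groups together. The title of SE KO RA replicate 1 names the knockout while its genotype field reads WT, and values without it are given where they matter.

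Dux is listed as Duxf3, at 0.0934 ± 0.132 CPM (counts scaled to a common library size, mean ± SD, n = 2) in ESC, 3.62 ± 0.541 in Dux OE and 0 counts in both Dux R70A OE libraries, so this entry does not check expression of the mutant. Duxf3 stood at 0.636 ± 0.400 CPM in Dux KD RA against 2.45 ± 0.416 in RA, at 0.0295 ± 0.0417 in Dux KD PlaB against 8.73 ± 0.734 in PlaB, and at 0.0324 ± 0.0459 in Dux KD Zscan4 OE against 1.33 ± 0.582 in Zscan4 OE. All 10 ESC markers examined had counts in every group.

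The 5 members lie within 451 kb of chromosome 7 (mm10, the build of the files). Obox2 (ENSMUSG00000074369) spans 15388721 to 15398545 and Obox1 (ENSMUSG00000054310) spans 15388948 to 15556866, both on the plus strand. Obox3 (ENSMUSG00000066772) spans 15479825 to 15639902 on the minus strand, Obox5 (ENSMUSG00000074366) 15750131 to 15759800 on the plus strand and Obox6 (ENSMUSG00000041583) 15833241 to 15839678 on the minus strand. All 5 are annotated as protein coding, and 15 Obox entries lie inside the span that they mark.

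The annotated promoters of the maternal and zygotic members resemble each other, and they are shown so that the members can be compared. RefSeq windows (GRCm38.p6, 250 bases before to 50 after the annotated start) were held for 4 members, the exception being Obox6. In Obox1, Obox3 and Obox5 the capitals mark the longest run common to these 3, of 42 bases, which holds a TATA-like TATATAAG. In Obox2, whose annotated start lies further upstream, they mark the longest run common to all 4 windows, of 25 bases. The window of Obox1 is chr7:15547007-15547306 on the plus strand, that of Obox2 chr7:15388601-15388900 on the plus strand, that of Obox3 chr7:15639728-15640027 on the minus strand and that of Obox5 chr7:15750120-15750419 on the plus strand.
Obox1: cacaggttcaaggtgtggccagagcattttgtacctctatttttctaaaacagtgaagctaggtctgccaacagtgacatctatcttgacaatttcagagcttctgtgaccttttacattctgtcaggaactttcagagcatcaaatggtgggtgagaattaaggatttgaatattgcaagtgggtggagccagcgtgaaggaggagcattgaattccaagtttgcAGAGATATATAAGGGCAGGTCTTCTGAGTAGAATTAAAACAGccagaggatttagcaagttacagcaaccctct
Obox2: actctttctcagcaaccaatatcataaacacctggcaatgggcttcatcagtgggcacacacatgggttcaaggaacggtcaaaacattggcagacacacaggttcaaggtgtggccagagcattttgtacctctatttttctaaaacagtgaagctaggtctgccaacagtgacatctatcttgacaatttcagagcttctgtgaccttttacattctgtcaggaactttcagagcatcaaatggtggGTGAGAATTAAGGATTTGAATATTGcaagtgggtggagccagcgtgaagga
Obox3: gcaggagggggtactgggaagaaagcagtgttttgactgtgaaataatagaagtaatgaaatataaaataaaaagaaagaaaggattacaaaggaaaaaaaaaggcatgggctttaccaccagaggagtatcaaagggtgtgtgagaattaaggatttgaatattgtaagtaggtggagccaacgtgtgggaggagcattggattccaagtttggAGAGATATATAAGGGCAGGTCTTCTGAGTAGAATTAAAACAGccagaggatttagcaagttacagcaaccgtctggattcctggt
Obox5: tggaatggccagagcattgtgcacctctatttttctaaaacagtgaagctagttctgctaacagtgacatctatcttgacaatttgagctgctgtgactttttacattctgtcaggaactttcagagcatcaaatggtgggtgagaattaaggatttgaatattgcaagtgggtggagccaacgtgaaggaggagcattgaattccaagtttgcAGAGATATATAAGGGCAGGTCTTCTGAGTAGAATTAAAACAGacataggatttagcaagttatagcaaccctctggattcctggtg

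The run of 42 bases begins at position -24 relative to the start in Obox1, -35 in Obox3 and -36 in Obox5. It occurred in 4 of 32851 RefSeq windows (0.0122%), the fourth being Obox7, another Obox gene. The run was also present in 1 annotated transcript of Obox2, outside the window of that gene. Over the bases that could be aligned, Obox1 matched Obox2 at 203 of 203 bases and Obox5 at 275 of 288, but Obox3 at only 220 of 270. Obox2 and Obox3 were the least alike of the 6 pairs, at 126 of 173 bases. Their windows are offset, the run of 25 bases beginning at -1 in Obox2 and at -109 in Obox3, so part of each lies outside the alignment. On either strand, GGATTA, letters bound by homeodomains of the Otx and Crx type, was found in 7.06% of all windows and in that of Obox3. TATAAA, the usual TATA box, was found in 13.6% of all windows and in that of Obox3. TATATAAG, chosen after the windows were compared, was found in 1.01% of all windows and in those of Obox1, Obox3 and Obox5. These are matches of letters and not sites of binding.

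The transcripts are also similar, which limits how surely a read can be given to a member. Of the 50-base windows of its annotated transcripts, Obox2 shared 65.1% with another gene and Obox1 57.4%, chiefly with each other. The share was 20.2% for Obox3, chiefly with Obox3 pseudogenes, 18.1% for Obox5, chiefly with Obox7, and 5.02% for Obox6, all of it with the pseudogene Obox6-ps1. With 100-base windows it was 47.2% for Obox2, 42.3% for Obox1, 8.89% for Obox3, 1.75% for Obox5 and 0 for Obox6. Obox1 and Obox2 also have 59 exon bases in common. Read length and the treatment of reads that fit several genes are not given in the sources used here, so the split between Obox1 and Obox2 is uncertain, and counts of Obox6 are the least exposed to copies.

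**Figure D1:**
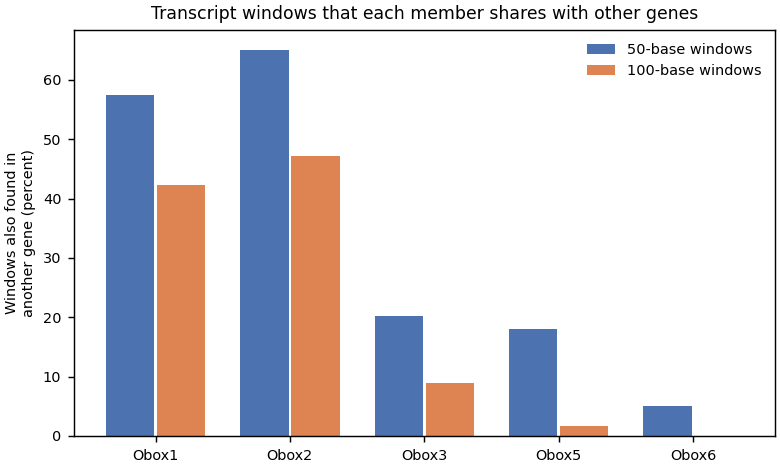
Percent of the 50-base and 100-base windows of each member's annotated transcripts (vertical axis) that also occur in a transcript of another gene. Obox2 and Obox1 reach 65.1% and 57.4% at 50 bases, whereas Obox6 stays at 5.02% and falls to 0 at 100 bases.

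All 5 members were at or near 0 counts in both controls. Obox1, Obox2, Obox3 and Obox5 had 0 counts in every ESC and DMSO library, and Obox6 had counts of 2 and 0 in ESC and of 0 and 2 in DMSO. A count of 0 allows up to 3 counts, which is 0.0796 to 0.226 CPM depending on the library, and such limits cover counting error only. Every rise of a member described here is thus a rise from the floor. Fewer cells that express a gene and less RNA per cell cannot be told apart in bulk samples. Of the 5 members, 3 (Obox2, Obox3 and Obox6) passed the filter on low counts and were tested with edgeR's quasi-likelihood test, called at a Benjamini-Hochberg adjusted p under 0.05 with at least 1 on the log2 scale. Obox1 and Obox5, with 39 and 14 counts over all 26 libraries, did not pass it. Outside the libraries with Dux overexpression Obox2 and Obox3 had at most 12 counts, so they passed the filter through the libraries in which they were high. The number of members called is therefore a description, and nothing is read from it against the share of all genes.

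Obox6 had 1000 counts over all libraries, more than the 4 other members together, and its highest level was under PlaB. It had 411 and 317 counts in the PlaB replicates, or 17.1 ± 3.90 CPM (SD, n = 2). Dux OE followed at 17 and 19 counts (1.26 ± 0.0316 CPM), Dux KD RA at 14 and 23 (1.08 ± 0.389 CPM) and Zscan4 OE at 18 and 17 (1.04 ± 0.171 CPM). Next came SE KO PlaB at 21 and 15 counts (0.805 ± 0.149 CPM), SE KO RA at 18 and 16 (0.757 ± 0.113 CPM), RA at 17 and 14 (0.700 ± 0.0686 CPM) and SE KO Dux OE at 36 and 8 (0.608 ± 0.490 CPM). PlaB did not overlap with any other group. From Dux OE down to Dux KD Zscan4 OE, which had 4 and 5 counts (0.318 ± 0.0823 CPM), each group overlapped with another. Dux KD RA (0.803 to 1.35 CPM) overlapped with SE KO PlaB (0.699 to 0.910 CPM). SE KO Dux OE (0.262 to 0.955 CPM) overlapped with Zscan4 OE (0.923 to 1.16 CPM), so these groups did not form separate tiers. Dux KD PlaB had 2 counts in each replicate and Dux R70A OE had 0 and 2, which is the level of the controls.

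Obox3 had a different order, led by Dux OE. It had 30 and 36 counts there (2.31 ± 0.174 CPM), 27 and 48 in SE KO Dux OE (1.14 ± 0.603 CPM) and 12 and 3 in PlaB (0.358 ± 0.315 CPM). These 3 groups did not overlap with each other. SE KO PlaB had 4 and 7 counts (0.250 ± 0.108 CPM), RA 4 and 2 (0.135 ± 0.0587 CPM) and Dux KD RA 3 and 0. The ranges of PlaB, SE KO PlaB, RA and Dux KD RA overlapped in sequence. Obox3 had 0 counts in both libraries of the 7 other groups, Zscan4 OE and SE KO RA among them.

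Obox2 was read in fewer groups. It had 17 and 12 counts in Dux OE (1.02 ± 0.303 CPM), 24 and 7 in SE KO Dux OE (0.433 ± 0.288 CPM) and 5 and 5 in PlaB (0.234 ± 0.0108 CPM). Dux OE lay above SE KO Dux OE, which overlapped with PlaB. Single counts came from 1 Zscan4 OE library and 1 SE KO PlaB library, and the 8 other groups were at 0.

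Obox1 and Obox5 stayed near the floor in all groups. Obox1 had 3 and 4 counts in Dux OE, 10 and 3 in SE KO Dux OE, 6 and 0 in PlaB, 2 and 4 in SE KO PlaB and 4 and 0 in RA. Dux KD RA gave 1 count in each library and Zscan4 OE gave 1 and 0. Obox5 had at most 4 counts in a library and counts in only 6 of the 26 libraries. Obox5 was read in the same 6 groups as Obox3, and Obox1 in these and in Zscan4 OE, but at this depth their groups could not be ranked.

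**Figure D2:**
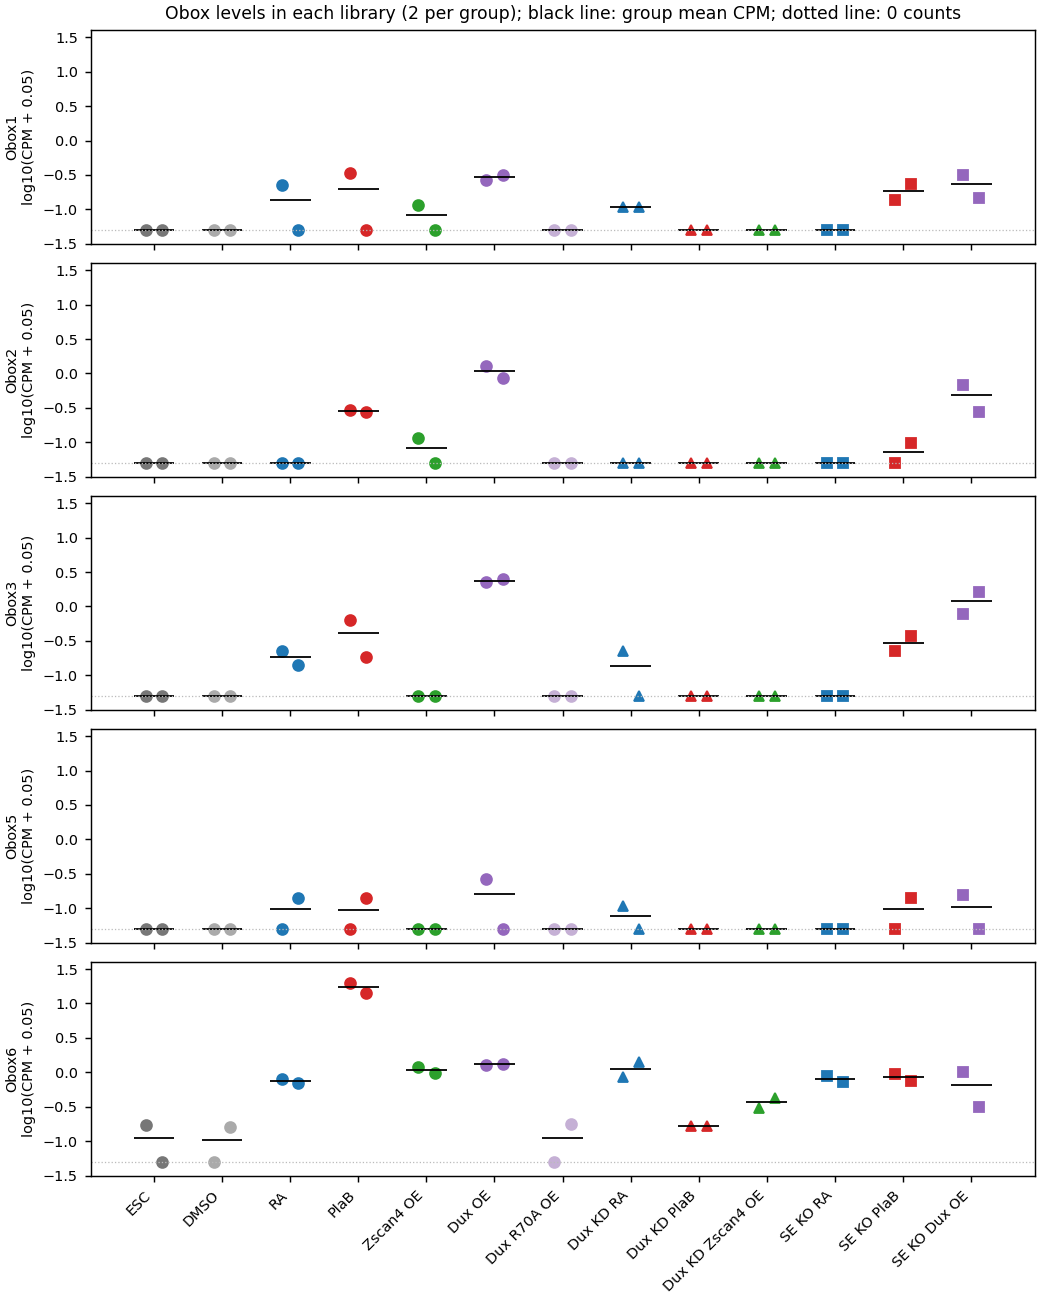
Level of each member in each library, as log10(CPM + 0.05), by group, with 2 points per group and a black line at the group mean. Obox6 is highest in the PlaB libraries (17.1 CPM on average), whereas Obox3 (2.31 CPM) and Obox2 (1.02 CPM) are highest in Dux OE, and the dotted line marks 0 counts.

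Per kilobase of exon the members can be compared only roughly. They differ in how much sequence they share with other genes, and the exon length covers all annotated transcripts of a gene. In Dux OE the mean level per kilobase was 0.938 ± 0.0235 CPM for Obox6, 0.724 ± 0.0545 for Obox3, 0.622 ± 0.184 for Obox2, 0.129 ± 0.0192 for Obox1 and 0.0512 ± 0.0724 for Obox5. In PlaB it was 12.7 ± 2.90 CPM for Obox6, 0.142 ± 0.00657 for Obox2, 0.112 ± 0.0986 for Obox3, 0.0764 ± 0.108 for Obox1 and 0.0212 ± 0.0300 for Obox5. As counted, the levels per kilobase of Obox2, Obox3 and Obox6 lay close together under Dux, and under PlaB Obox6 stood apart from the others.

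The first question was whether Dux raises the Obox genes and whether the R70A mutant, which replaces an arginine of Dux with alanine, does so too. Against ESC, the 3 members that passed the filter were called higher in Dux OE, as Obox2 and Obox3 had to be high there to pass it, and 7.38% of all 20953 genes tested were called higher. Obox3 was at least 11.6-fold higher (30 and 36 counts against 0 and 0, adjusted p = 1.2e-04, edgeR's quasi-likelihood test) and Obox2 at least 5.13-fold higher (17 and 12 against 0 and 0, adjusted p = 0.00136, the same edgeR test). These folds are lower bounds, set against 3 counts in the shallower control library. Obox6 was 19.6-fold higher, with a 95% exact interval for counting error of 5.05 to 168 (36 counts against 2, adjusted p = 4.1e-04 by edgeR). The fold rests on 1 control library: the fitted log2 change of 4.16 became 3.28 without ESC replicate 2 and 7.63 without ESC replicate 1, when the remaining control is at 0 and the value depends on the prior count. For Obox6 both Dux OE libraries lay above both ESC libraries. Comparisons of inductions share the ESC or DMSO libraries, and those of Dux KD and SE KO share the libraries of the induction. With DMSO in place of ESC all 3 were again called, which for Obox2 and Obox3 the filter favours. ESC markers summed to 6252 and 6273 CPM in the Dux OE libraries against 7598 and 7623 in ESC, with 0 of 10 called by edgeR, and trophoblast markers to 187 and 194 CPM against 80.1 and 81.4, with 1 of 7 tested called higher and 2 of 8 at 0 counts in Dux OE. Their part in the result was not tested.

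In Dux R70A OE all members were at or near the floor. Obox1, Obox2, Obox3 and Obox5 had 0 counts in both Dux R70A OE libraries, and Obox6 had 0 and 2. Against ESC 0 of 3 members were called by edgeR, with 0 at an unadjusted p under 0.05 and 0 by DESeq2, where 16.9% of all genes were called in either direction. Against Dux OE the same 3 that passed the filter were called lower, which for Obox2 and Obox3 the filter favours, and 7.51% of all genes were lower. Obox3 was at least 12.3-fold lower (adjusted p = 5.3e-05) and Obox2 at least 5.44-fold lower (adjusted p = 6.8e-04), both by edgeR. Obox6 was 21.8-fold lower, with a counting interval of 5.61 to 187 (adjusted p = 1.6e-04 by edgeR). The fitted log2 change of -4.30 became -3.27 without Dux R70A OE replicate 1 and -7.63 without replicate 2, which leaves a library at 0.

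The next question was whether the chemical inductions raise the Obox genes. PlaB raised 3 of 3 members against DMSO, with 32.3% of all genes called higher. Obox6 was 306-fold higher, with a counting interval of 84.4 to 2530.4 (728 counts against 2, adjusted p = 6.8e-13 by edgeR). The fitted log2 change of 8.11 became 7.21 without DMSO replicate 1 and 11.38 without DMSO replicate 2, which leaves a control at 0. Obox3 was at least 2.11-fold higher (12 and 3 counts against 0 and 0, adjusted p = 0.00621 by edgeR) and Obox2 at least 1.38-fold higher (5 and 5 against 0 and 0, adjusted p = 0.0153 by edgeR). The last 2 calls rest on few counts: Obox3 lost its call without PlaB replicate 1 (adjusted p = 0.0787) and with DESeq2 (0.0594), and Obox2 lost its call without either DMSO library (adjusted p = 0.0613 and 0.0651), both genes otherwise being tested by edgeR. Obox6 was called in 12 of 12 alternative settings, with adjusted p from 1.7e-54 to 1.1e-09 by edgeR or DESeq2.

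Other cell type markers moved under PlaB as well. Of 7 trophoblast markers tested, 6 were higher and 1 lower against DMSO, and all 8 listed summed to 463 and 485 CPM against 99.4 and 97.9, with 0 of 8 at 0 counts in PlaB and 1 of 8 in DMSO. Of 10 ESC markers, 6 were lower, with sums of 6338 and 5830 CPM against 9354 and 9499. Of 11 oocyte genes tested, 6 were higher and 1 lower, led by Oog1, Padi6 and Bcl2l10, and all 19 in the table summed to 63.8 and 63.5 CPM against 116 and 113. The part of these genes in the level of Obox6 was not tested.

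RA raised 1 of 3 members, with 20.6% of all genes called higher. Obox6 was 12.6-fold higher than in DMSO, with a counting interval of 3.20 to 109 (31 counts against 2, adjusted p = 0.00128 by edgeR). The fitted log2 change of 3.51 became 2.61 without DMSO replicate 1 and 6.79 without DMSO replicate 2, the latter again against a control at 0. Obox3 had 4 and 2 counts against 0 and 0 and did not pass the test (adjusted p = 0.0751 by edgeR), and Obox2 had no count in either group. RA libraries also had 7 of 8 primitive endoderm markers called higher, with sums of 672 and 710 CPM against 143 and 148 and 0 of 8 at 0 counts in RA, and 8 of 10 ESC markers called lower. Of 7 trophoblast markers tested 4 were higher, with sums of 107 and 117 CPM against 99.4 and 97.9 and 0 of 8 at 0 counts, and of 6 fibroblast or feeder markers tested 3 were higher, with sums of 107 and 122 CPM against 53.3 and 54.3 and 1 of 8 at 0 counts. The part of these markers in the rise of Obox6 was not tested.

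Zscan4 OE likewise raised 1 of 3 members against ESC, with 7.25% of all genes called higher. Obox6 was 16.0-fold higher, with a counting interval of 4.12 to 138 (35 counts against 2, adjusted p = 6.6e-04 by edgeR). The fitted log2 change of 3.88 became 2.99 without ESC replicate 2 and 7.35 without ESC replicate 1, the latter against a control at 0. Obox3 had 0 counts in all 4 libraries and Obox2 a single count, so no difference was detectable at this depth. Between DMSO and ESC no member was called (0 of 3 by edgeR, 0 at an unadjusted p under 0.05 and 0 by DESeq2), where 16.2% of all genes were called in either direction.

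**Figure D3:**
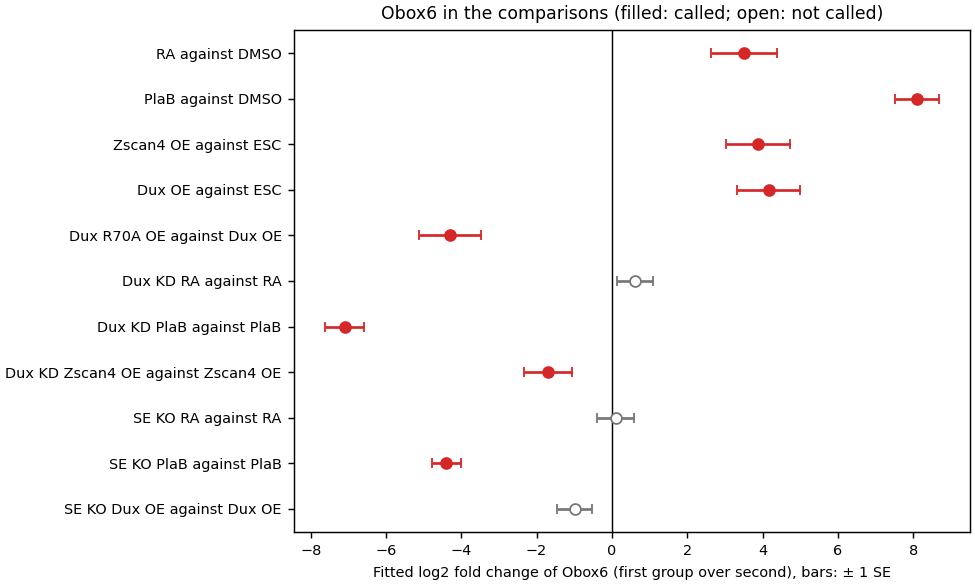
Fitted log2 fold change of Obox6 in 11 comparisons, first group over second, with bars of 1 SE on each side. Filled points passed the test (PlaB against DMSO at 8.11 is the highest and Dux KD PlaB against PlaB at -7.10 the lowest), and the open points, Dux KD RA, SE KO RA and SE KO Dux OE, did not.

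The Dux knockdown groups asked how Obox6 responds to the other inductions when Dux is lowered. Dux was not lowered equally: Duxf3 had 16 and 6 counts in Dux KD RA (0.636 CPM), above the 3 and 0 of ESC, against 1 and 0 in each of the other knockdown groups. Under PlaB, knockdown lowered 3 of 3 members, with 28.8% of all genes called lower. Obox6 fell from 411 and 317 counts to 2 and 2, 144-fold lower with a counting interval of 55.8 to 528 (adjusted p = 1.8e-12 by edgeR). Obox3 and Obox2 fell to 0 counts in both libraries, at least 2.00-fold lower (adjusted p = 0.00754) and at least 1.31-fold lower (adjusted p = 0.0181), both by edgeR. DESeq2 called only Obox6 of the 3. The calls of Obox3 without PlaB replicate 1 (adjusted p = 0.0872) and of Obox2 without either Dux KD PlaB library (0.0735 and 0.0724) were lost in edgeR.

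Other gene groups moved in the same libraries. The 2C genes are a list of genes of the 2-cell embryo that includes Duxf3, the Zscan4 cluster and Tdpoz genes. They summed to 15.4 and 15.0 CPM against 11169 and 11227 in PlaB, and 25 of 28 tested were lower. Of 7 trophoblast markers tested 5 were lower and 1 higher, with sums of 127 and 135 CPM against 463 and 485 and 3 of 8 at 0 counts, and 6 of 10 ESC markers were higher, at 8142 and 8116 CPM. Their part in the fall of Obox6 was not tested.

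Under RA, knockdown of Dux was not accompanied by a fall of Obox6. It had 14 and 23 counts in Dux KD RA against 17 and 14 in RA, 1.53-fold higher with a counting interval of 0.925 to 2.56 (log2 0.61, SE 0.49, adjusted p = 0.346 by edgeR). Obox3 had 3 and 0 counts against 4 and 2 (adjusted p = 0.743 by edgeR). In all 0 of 3 members were called, with 0 at an unadjusted p under 0.05 and 0 by DESeq2, and 4.54% of all genes were called lower. Of 28 2C genes 7 were lower, Duxf3 itself among them, and 1 was higher. The list summed to 649 and 650 CPM against 1348 and 1160. Primitive endoderm markers summed to 450 and 453 CPM against 672 and 710, with 1 of 8 higher, 2 lower and 0 at 0 counts, and their part in the level of Obox6 was not tested.

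Against Zscan4 OE, 1 of 3 members was lower in Dux KD Zscan4 OE, with 5.35% of all genes called lower. Zscan4c had 12 and 15 counts there (0.953 ± 0.247 CPM), against 1545 and 1897 in Zscan4 OE (101 ± 2.15 CPM) and 92 and 92 in ESC (5.93 ± 0.284 CPM). This entry thus does not show that Zscan4 was overexpressed in Dux KD Zscan4 OE, whose labels give no treatment or time. Obox6 went from 18 and 17 counts to 4 and 5, 3.28-fold lower in mean CPM (log2 -1.70, SE 0.63, adjusted p = 0.0394 by edgeR). Both knockdown libraries lay below both Zscan4 OE libraries and above both ESC libraries. The call is not firm: it was lost with any 1 of the 4 libraries left out (adjusted p 0.0742 to 0.189) and with only the 2 groups in the fit (0.0580), the adjusted p over all settings running from 0.0103 to 0.189 in edgeR and DESeq2. Of 28 2C genes 23 were lower and 1 higher, with sums of 24.3 and 26.1 CPM against 648 and 688. The Dux KD Zscan4 OE replicates differed more than most over all genes, with a chi-square per degree of freedom of 26.1. Obox2 and Obox3 had at most 1 count in either group.

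The effect of the knockdown on Obox6 differed between inductions in the test of the difference itself, and so did the level of Duxf3 that remained, whose part was not tested. The starting level differed too: Obox6 had 411 and 317 counts in PlaB, 18 and 17 in Zscan4 OE and 17 and 14 in RA. Zscan4 OE and RA left less room for a fall to the floor, and the part of this was not tested. Zscan4 overexpression in Dux KD Zscan4 OE is also not shown by Zscan4c. The log2 change under PlaB minus that under RA was -7.71 (SE 0.78, adjusted p = 1.6e-09 by edgeR), with 52.2% of all genes called in either direction. That under PlaB minus that under Zscan4 OE was -5.39 (SE 1.09, adjusted p = 1.0e-04 by edgeR), with 49.2% of all genes called. That under Zscan4 OE minus that under RA was -2.32 (SE 0.80, adjusted p = 0.0304 by edgeR), with 12.3% of all genes called, and this last difference was not called without RA replicate 1 (0.0510), RA replicate 2 (0.0726), Dux KD RA replicate 2 (0.141), Zscan4 OE replicate 1 (0.0877) or Dux KD Zscan4 OE replicate 1 (0.118), over a range of 0.00734 to 0.141 across settings. Obox2 and Obox3 had groups at 0 in these contrasts and gave no usable estimate of such differences.

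The SE KO groups asked whether the Tdpoz super-enhancer is needed for these levels. Under PlaB its deletion lowered 2 of 3 members, with 26.1% of all genes called lower. Obox6 fell from 411 and 317 counts to 21 and 15, 21.3-fold lower in mean CPM (log2 -4.40, SE 0.38, adjusted p = 3.8e-11 by edgeR), and remained above both DMSO libraries. It was called in 11 of 11 alternative settings (adjusted p 1.2e-37 to 1.0e-08, edgeR or DESeq2). Obox3 did not pass the test: 4 and 7 counts stood against 12 and 3 in PlaB, a 1.42-fold lower level with a counting interval of 0.610 to 3.42 (adjusted p = 0.602 by edgeR). Obox2 had 0 and 1 counts against 5 and 5, 10.4-fold lower with a counting interval of 1.48 to 453 (adjusted p = 0.0424 by edgeR), a call that was lost in 6 alternatives, among them PlaB replicate 1 or 2 or SE KO PlaB replicate 1 left out (adjusted p = 0.0985, 0.0885 and 0.202 by edgeR).

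Other gene groups moved in SE KO PlaB as well. Duxf3 had 38 and 45 counts (1.87 ± 0.319 CPM) against 191 and 181 in PlaB (8.73 ± 0.734 CPM). Of 10 ESC markers 5 were higher, led by Sox2, Esrrb and Nanog, and 1 lower, with sums of 5963 and 6533 CPM against 6338 and 5830 in PlaB and 9354 and 9499 in DMSO. Trophoblast markers summed to 185 and 299 CPM against 463 and 485 in PlaB, with 1 of 7 tested higher, 1 lower and 0 of 8 at 0 counts, and 6 of 8 primitive endoderm markers were higher, with sums of 447 and 488 CPM against 54.9 and 63.6. Of 28 2C genes 20 were lower, with sums of 1348 and 1204 CPM against 11169 and 11227. The SE KO PlaB replicates also differed from each other over all genes, with a chi-square per degree of freedom of 30.2 against 1.55 to 26.1 in the other groups. The part of these differences in the level of Obox6 was not tested.

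Under RA, Obox6 was nearly level between SE KO RA (18 and 16 counts) and RA (17 and 14), 1.07-fold higher with a counting interval of 0.640 to 1.81 (log2 0.10, SE 0.49, adjusted p = 0.892 by edgeR). Without SE KO RA replicate 1, whose labels conflict, the log2 difference was -0.046. Obox3 had 0 and 0 counts against 4 and 2 (adjusted p = 0.0666 by edgeR, and 0.0420 with no filter on low counts). In all 0 of 3 members were called by edgeR, with 1 at an unadjusted p under 0.05 and 0 by DESeq2, and 11.0% of all genes were called lower. In the same comparison 22 of 28 2C genes were lower, with sums of 124 and 134 CPM against 1348 and 1160. Of 10 ESC markers 5 were lower and 1 higher, with sums of 3676 and 3655 CPM against 5286 and 5325, and of 8 primitive endoderm markers 3 were lower, with sums of 310 and 327 CPM against 672 and 710. Duxf3 had 2 and 10 counts in SE KO RA (0.258 ± 0.233 CPM) against 49 and 59 in RA. The part of these differences in the level of Obox6 under RA was not tested.

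Under Dux OE the deletion gave lower means in all 3 members without a call. Obox3 had 27 and 48 counts against 30 and 36 in shallower libraries, 2.02-fold lower in mean CPM (log2 -1.02, SE 0.58, adjusted p = 0.219 by edgeR). Obox2 was 2.37-fold lower (log2 -1.20, SE 0.66, adjusted p = 0.208 by edgeR) and Obox6 2.07-fold lower (log2 -0.99, SE 0.47, adjusted p = 0.124 by edgeR). The replicates of SE KO Dux OE disagreed: Obox6 had 36 and 8 counts, Obox2 24 and 7, but Obox3 27 and 48. Without SE KO Dux OE replicate 1 Obox6 was called lower (log2 -2.24, adjusted p = 0.0101 by edgeR, over a range of 0.0101 to 0.571 across settings). In all 0 of 3 members were called, with 1 at an unadjusted p under 0.05 and 0 by DESeq2, and 3.84% of all genes were called lower. Of 6 fibroblast or feeder markers tested 4 were higher in SE KO Dux OE, led by Postn, Col3a1 and Col1a2, with sums over all 8 of 127 and 132 CPM against 61.9 and 58.0 and 0 of 8 at 0 counts. Duxf3 stood at 55 and 39 counts (1.37 ± 0.130 CPM) against 55 and 48 in the shallower Dux OE libraries (3.62 ± 0.541 CPM). The part of these in the members' levels was not tested.

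For Obox6 the effect of the deletion under PlaB differed from that under RA by -4.50 on the log2 scale (SE 0.64, adjusted p = 5.9e-07 by edgeR), with 49.0% of all genes called in either direction. It differed from that under Dux OE by -3.41 (SE 0.60, adjusted p = 2.0e-05 by edgeR), with 45.1% of all genes called. Here too Obox6 started from 411 and 317 counts in PlaB, against 17 and 14 in RA and 17 and 19 in Dux OE. RA and Dux OE left less room for a fall, and the part of this was not tested. Between Dux OE and RA the difference was -1.10 (SE 0.68, adjusted p = 0.205 by edgeR), with 20.8% of all genes called. This last difference was called without SE KO Dux OE replicate 1 (-2.35, adjusted p = 0.0138 by edgeR, over a range of 0.0138 to 0.555 across settings).

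The other 50 Obox entries show how the members stand within the family. Of the 55 entries 45 are annotated as unprocessed pseudogenes and 2 as processed pseudogenes, 1 as a lincRNA and 7 as protein coding, and 53 lie on chromosome 7. Among the 50 others, 36 had a count and 7 passed the filter, all of them named Obox4-ps, with Obox4-ps35 being the lincRNA. Obox7 and Obox8, the coding genes beyond the members, had at most 4 counts in any library. The lack of strand information in the sources used here also means that reads of overlapping transcripts on opposite strands cannot be told apart.

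Most Obox counts in Dux OE came from these other entries, and most in PlaB from Obox6. The 5 members held 16.1% and 17.4% of the Obox counts in the 2 Dux OE libraries, against 75.5% and 68.1% in PlaB and 19.8% and 17.3% in RA. In SE KO PlaB the share was 9.68% and 16.6%. The pseudogene entry with most counts was Obox4-ps33 (chromosome 7, 15691650 to 15693360), with 129 and 144 counts in Dux OE (9.56 ± 0.231 CPM), 52 and 41 in RA, 17 and 15 in PlaB and 0 in both ESC and both DMSO libraries.

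Obox4-ps33 went against Obox6 when the super-enhancer was deleted under PlaB. It had 99 and 61 counts in SE KO PlaB (3.57 ± 1.02 CPM) against 17 and 15 in PlaB (0.752 ± 0.101 CPM) and was called higher (log2 2.24, SE 0.36, adjusted p = 6.0e-06 by edgeR). Obox4-ps16 was called higher as well (20 and 16 counts against 4 and 1, log2 2.71, SE 0.77, adjusted p = 0.00357 by edgeR). Under RA Obox4-ps33 fell with the deletion, from 52 and 41 counts to 8 and 3 (log2 -3.07, SE 0.45, adjusted p = 7.2e-06 by edgeR), where Obox6 did not. It fell with the Dux knockdown under RA too, to 10 and 7 counts (log2 -2.07, SE 0.42, adjusted p = 4.6e-04 by edgeR), again without a call for Obox6.

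Over the 7 tested entries, 5 rose under RA (20.6% of all genes called higher) and 6 under PlaB (32.3%) against DMSO. Against ESC 1 rose under Zscan4 OE (7.25%) and 6 under Dux OE (7.38%). With R70A in place of Dux 7 were lower, with 7.51% of all genes called lower. Dux knockdown lowered 1 under RA (4.54%), 5 under PlaB (28.8%) and 2 under Zscan4 OE (5.35%). The super-enhancer deletion lowered 3 under RA (11.0%), 0 under PlaB (26.1%) and 1 under Dux OE (3.84%), and raised 2 under PlaB. The 7 entries were near 0 counts in ESC and DMSO. They passed the filter through libraries where they were higher, so these numbers are a description.

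**Figure D4:**
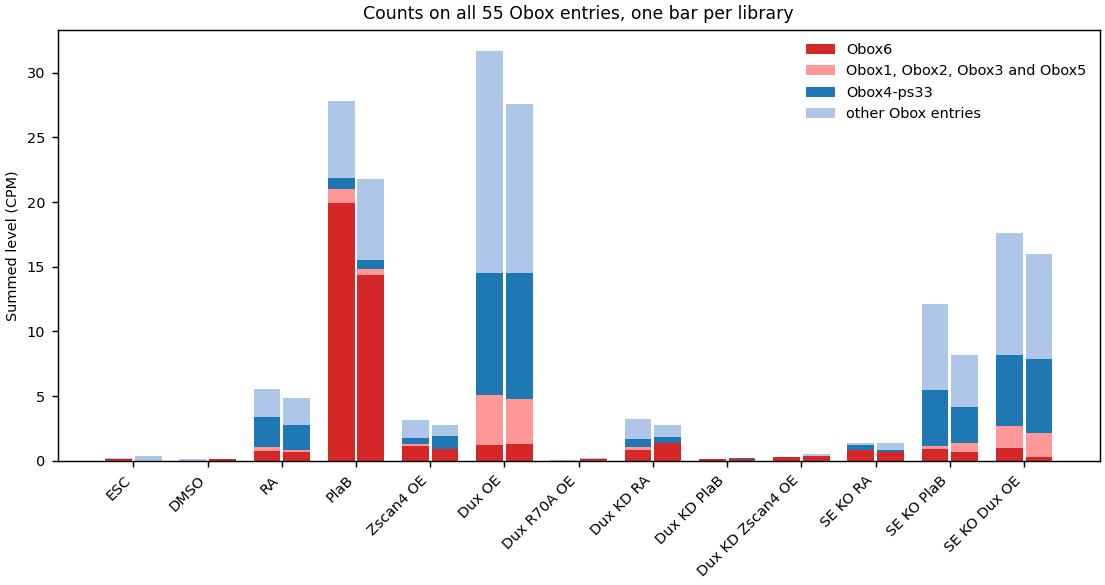
Summed level in CPM of all 55 Obox entries, with 1 bar per library, divided into Obox6, the 4 other members, Obox4-ps33 and the remaining entries. Obox6 makes up most of the bar in the PlaB libraries, whereas the members together hold 16.1% and 17.4% of the counts in Dux OE.

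Genes around the family are given for comparison. Of 41 genes without an Obox name within 500 kb of the members, 17 were tested. PlaB raised 5 and lowered 6 of them, where 32.3% of all genes were called higher. Dux OE raised 2, which were Gtpbp4-ps3 and Crxos, where 7.38% of all genes were called higher. Crxos, a homeobox gene at 15882617 to 15904020, stood at 52.2 CPM in PlaB against 1.16 in DMSO (log2 5.47, SE 0.33, adjusted p = 1.6e-14 by edgeR), at 3.71 CPM in Dux KD PlaB (adjusted p = 1.5e-12) and at 8.55 CPM in SE KO PlaB (adjusted p = 3.0e-10). Dux knockdown under Zscan4 OE gave no call for Crxos (5.13 against 2.92 CPM, adjusted p = 0.0609 by edgeR).

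Across 20 other homeobox genes of the oocyte and early embryo, 12 were tested. PlaB raised 9 (32.3% of all genes called higher), led by Pitx1, Crxos and Cdx2, and RA raised 6 (20.6%) and lowered 2. Dux OE raised 1 of the 12, Crxos, with 7.38% of all genes called higher. The list and the members were chosen with results of these data known, so these counts are a description.

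The 2C genes give a scale of the program in each group, but one not independent of the manipulations. The list holds Duxf3, the target of the knockdown, Zscan4 genes and genes of the Tdpoz locus. Of 28 tested, 24 rose under RA, 24 under PlaB, 23 under Zscan4 OE and 25 under Dux OE. Against ESC 16 were lower in Dux R70A OE, and 12 were lower in DMSO, without any Dux construct. The 2C sums were 15.0 and 14.2 CPM in DMSO against 61.9 and 58.5 in ESC. The 2C sum and the levels of the members did not run in the same order. Dux OE had 2C sums of 7402 and 7569 CPM with Obox6 at 1.26 CPM, whereas Zscan4 OE had 648 and 688 CPM with Obox6 at 1.04 CPM, and SE KO RA 124 and 134 CPM with Obox6 at 0.757 CPM. Obox3 was at 0 counts in all libraries with a 2C sum under 649 CPM. It was also at 0 in Dux KD RA replicate 2 (650 CPM) and Zscan4 OE replicate 2 (688 CPM). Its level was higher in Dux OE than in PlaB, although PlaB had the higher 2C sums.

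**Figure D5:**
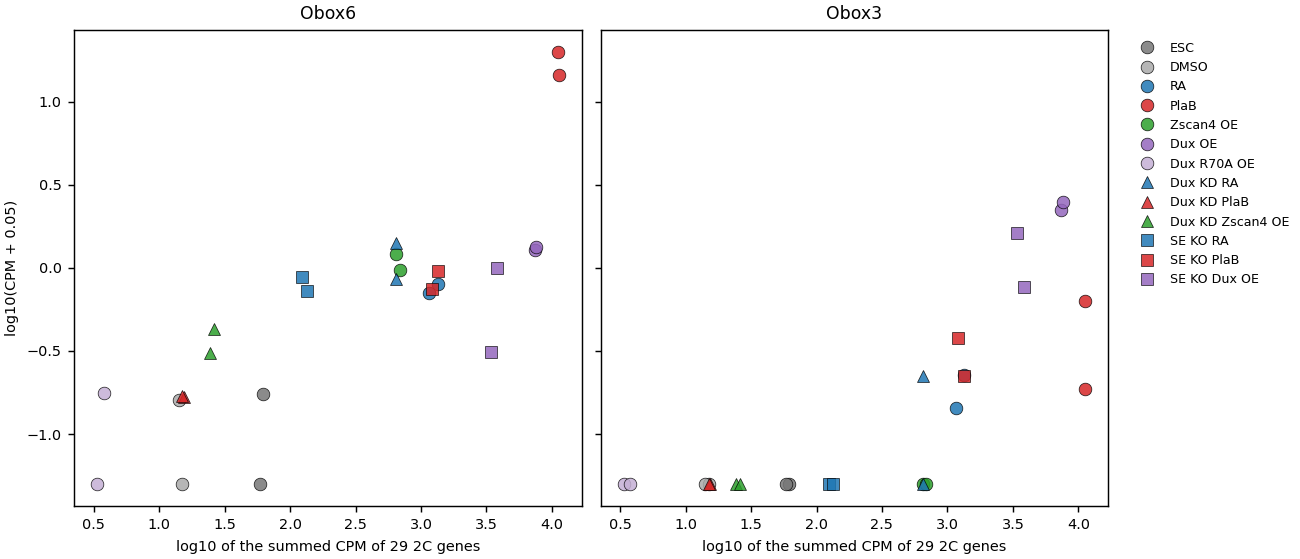
Level of Obox6 (left) and Obox3 (right), as log10(CPM + 0.05), against log10 of the summed CPM of 29 2C genes, with 1 point per library. Circles are inductions and controls, triangles Dux KD and squares SE KO, with colour by induction. Obox6 lies between 0.262 and 1.35 CPM in the libraries with 2C sums from 124 to 7569 CPM and at 14.4 and 19.9 CPM in the PlaB libraries, whereas Obox3 is highest in Dux OE.

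The genes whose levels ran most like each member over the 26 libraries were named by Pearson's r of log2 CPM, as a description, since the libraries share groups and many low values. For Obox2 they were Gm29730 (r = 0.986, Spearman's rho = 0.983), Gm13510 (0.977, 0.808), Esp4 (0.966, 0.910), Gm31904 (0.966, 0.908) and Gm5852 (0.965, 0.915), all highest in Dux OE. For Obox3 they were Gm48399 (r = 0.948, rho = 0.797), Gm47224 (0.943, 0.840), Gm5834 (0.943, 0.865), Olfr1276 (0.943, 0.908) and Gm6558 (0.942, 0.932), again highest in Dux OE. For Obox6 they were Them4 (r = 0.912, rho = 0.846), Defb25 (0.898, 0.904), A930027P06Rik (0.898, 0.845), Efna5 (0.897, 0.799) and Asb12 (0.885, 0.804), all highest in PlaB. Among the members r was 0.880 for Obox2 with Obox3 (rho 0.827), 0.479 for Obox2 with Obox6 (rho 0.559) and 0.430 for Obox3 with Obox6 (rho 0.564).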

How the data were processed

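Poly(A) RNA-seq of 26 libraries of the mESC line R1 was analysed from 1 table of raw gene counts deposited by the authors. The submitters' processing notes name FastQC, Trimmomatic, STAR, featureCounts, DESeq2 and mm10, with no versions, strand setting or rule for reads that fit several genes. Gene spans matched GENCODE M21 for 99.3% of the names in common. The 5 members were taken by gene name; the members, gene lists and motifs were chosen with earlier results of these data known. Named genes are all members, at most 3 called genes of largest change per list and comparison, and the 5 genes most correlated with each tested member.

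Counts were fitted for all 26 libraries in edgeR 4.0.16 (R 4.3.3) with 1 coefficient per group, TMM scaling, filterByExpr (20953 of 55291 genes kept) and a prior count of 0.125. The submitters' notes name DESeq2, which was run as an alternative. Calls needed a log2 change of at least 1 and an adjusted p (Benjamini-Hochberg) under 0.05, in 13 comparisons and 6 interaction contrasts. SE is the absolute log2 change over the root of F. CPM used TMM library sizes. Where a group had 0 counts, folds are bounds against 3 counts in its shallowest library. Other ratios of few counts have exact conditional 95% intervals (SciPy 1.17.1), which cover counting error only. The fit was tested on simulated data. Alternatives were RLE scaling, library size only, no filter, DESeq2 1.42.0, only the groups compared, a replicate block, no fold threshold, the other control and each replicate left out. Promoter windows came from RefSeq (GRCm38.p6), aligned with Biopython 1.88. Replicates differed by more than sampling noise in every group (chi-square per degree of freedom 1.55 to 30.2). No columns of other samples were present.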

Additional observations from a re-analysis of the deposited data

Results flagged for a closer look

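The effects of Dux knockdown and of the super-enhancer deletion on Obox6 differed between inductions in 5 of the 6 interaction tests. Such calls were common: 45.1% to 52.2% of all genes were called in the 4 contrasts that involve PlaB. For Dux knockdown under Zscan4 OE against RA the share was 12.3%. For Dux knockdown the log2 change under PlaB lay -7.71 from that under RA and -5.39 from that under Zscan4 OE, and the change under Zscan4 OE lay -2.32 from that under RA (edgeR, adjusted p = 1.6e-09, 1.0e-04 and 0.0304). For the deletion the change under PlaB lay -4.50 from that under RA and -3.41 from that under Dux OE (edgeR, adjusted p = 5.9e-07 and 2.0e-05). In each of the 4 differences that involve PlaB, the PlaB libraries had 411 and 317 counts of Obox6 and the contrasted induction, without knockdown or deletion, at most 19 in a library. Zscan4c stood below its ESC level in Dux KD Zscan4 OE, so the contrasts that use this group may not compare matched inductions. With 2 libraries per group, single libraries could not be examined as outliers.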

How the results depend on the processing

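Precision is limited by low counts: outside Obox6 under PlaB no member had more than 48 counts in a library, and Obox1 and Obox5 could not be tested after filtering. The number of members called moved by over 1.5 times as follows. For Dux KD PlaB against PlaB, 3 became 1 with DESeq2. For Dux KD Zscan4 OE, 1 became 0 with only the groups compared and with any replicate left out. For SE KO RA, 0 became 1 with no filter. For SE KO PlaB, 2 became 1 with no filter, with DESeq2 and with only the groups compared, and was 1 to 2 with a replicate left out. With a replicate left out, SE KO Dux OE gave 0 to 1, and the interaction contrasts gave 1 to 2 (Dux knockdown, PlaB against RA), 0 to 1 (Zscan4 OE against RA), 1 to 2 (deletion, PlaB against RA) and 0 to 1 (Dux OE against RA). The cause was not tested.

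Signs reversed only in uncalled values with 1 replicate left out: Obox3 in Dux KD RA ran from -4.47 to 0.33, Obox6 in SE KO RA from -0.046 to 0.26, Obox3 in SE KO PlaB from -1.21 to 0.84, and the Obox3 contrasts of Zscan4 OE with RA from -0.33 to 4.47 and of PlaB with Dux OE from -0.18 to 1.86. Replicate numbers did not pair the samples (correlation of same-numbered deviations -0.0473 to 0.0237), and with the replicate block Obox6 in RA against DMSO was 3.50 on the log2 scale, with no change in the number of members called. Scaling by library size only shifted the median gene by up to 0.26 on the log2 scale (PlaB against DMSO). Of the other alternatives, 514 values for single members stayed on the same side of the threshold, 25 lost a call and 6 gained one.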
